A study of Mus musculus with 27 samples.

Results

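The Schlafen family members described here are Slfn1, Slfn2, Slfn5, Slfn8 and Slfn9, 5 of the 47729 gene rows of a mouse RNA-seq count table, found by matching the table's Ensembl IDs to these symbols. They were selected on their CPM values and changes between the 6 groups of these same libraries, so their levels, changes and calls are given as a description and support no statement on their own. The table holds 27 libraries of CD8+ T cells sorted out of tumours of MC38, a mouse colon adenocarcinoma line. The sort used PD-1, a receptor that restrains activated T cells, and KLRG1, a receptor of late effector T cells. The groups were Tri PD1+KLRG1+ (5 libraries), Tri PD1+KLRG1- (5), Tri PD1-KLRG1+ (4), Tri PD1-KLRG1- (5), Iso PD1-KLRG1+ (4) and Iso PD1-KLRG1- (4). Tri is a treatment called TCT in the series text, with components not given in the sources used here, and Iso is its isotype control. No library of PD1+ cells from Iso mice was analysed, and the effect of the treatment is therefore given for PD1- cells alone. The host strain, the age of the mice and whether replicates came from separate mice are not given in the labels, so the spread between replicates may in part be technical.

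Schlafen proteins are a family found in mammals whose founding members were named, from the German word for sleeping, for the growth arrest that Slfn1 imposed on mouse thymocytes and fibroblasts. Slfn1 and Slfn2 are short proteins, while Slfn5, Slfn8 and Slfn9 are long ones with an added helicase-like region. Many Schlafen genes are induced by type I interferon, and T cells of mice with a mutant Slfn2 fail to hold a quiescent state.

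All 5 genes lie in 1 cluster on chromosome 11 (GRCm38, GENCODE M21). Slfn5 spans chr11:82951349-82964840 on the plus strand, Slfn9 chr11:82978390-82991830 and Slfn8 chr11:83002158-83020810 on the minus strand, Slfn2 chr11:83065112-83070678 and Slfn1 chr11:83116849-83122670 on the plus strand. The 250 bases before the RefSeq start are shown for each, because the family is known for interferon induction and the element that interferon factors bind would lie there. The sequences are RefSeq's on GRCm38.p6, 5′ to 3′ on the strand of the gene. The RefSeq start of Slfn5 lies inside the GENCODE span, so its window falls within the annotated gene. RefSeq lists another start for Slfn8, whose window overlaps the one shown and holds the same match. Capitals in Slfn5, Slfn8 and Slfn9 mark the core of the interferon-stimulated response element (ISRE), GAAANNGAAA on either strand, and capitals in Slfn1 and Slfn2 mark the longest run of letters that their windows share.
Slfn1 chr11:83116570-83116819: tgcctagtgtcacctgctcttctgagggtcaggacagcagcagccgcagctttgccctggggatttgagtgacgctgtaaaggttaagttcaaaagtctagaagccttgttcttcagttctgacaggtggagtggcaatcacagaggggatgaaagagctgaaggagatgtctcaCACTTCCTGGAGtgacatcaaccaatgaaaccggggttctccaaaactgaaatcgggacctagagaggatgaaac
Slfn2 chr11:83064862-83065111: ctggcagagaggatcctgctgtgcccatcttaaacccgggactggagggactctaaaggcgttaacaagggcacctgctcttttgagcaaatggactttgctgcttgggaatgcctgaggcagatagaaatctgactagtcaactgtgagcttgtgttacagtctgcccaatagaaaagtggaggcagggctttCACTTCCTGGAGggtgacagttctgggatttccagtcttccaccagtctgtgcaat
Slfn5 chr11:82951852-82952101: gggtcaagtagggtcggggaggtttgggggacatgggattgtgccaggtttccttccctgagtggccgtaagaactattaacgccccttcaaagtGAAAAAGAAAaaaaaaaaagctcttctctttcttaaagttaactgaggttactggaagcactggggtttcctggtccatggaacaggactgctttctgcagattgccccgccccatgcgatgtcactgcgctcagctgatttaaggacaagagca
Slfn8 chr11:83020811-83021060: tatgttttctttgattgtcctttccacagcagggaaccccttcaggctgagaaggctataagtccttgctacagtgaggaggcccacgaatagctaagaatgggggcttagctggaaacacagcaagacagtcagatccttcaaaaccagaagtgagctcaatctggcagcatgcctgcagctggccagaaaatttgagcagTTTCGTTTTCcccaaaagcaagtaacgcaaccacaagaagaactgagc
Slfn9 chr11:82991831-82992080: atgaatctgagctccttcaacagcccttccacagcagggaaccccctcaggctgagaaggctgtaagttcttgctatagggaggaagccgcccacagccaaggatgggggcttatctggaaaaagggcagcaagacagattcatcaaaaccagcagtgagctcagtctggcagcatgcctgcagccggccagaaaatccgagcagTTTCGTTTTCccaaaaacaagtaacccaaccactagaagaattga

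The ISRE core stood in the windows of Slfn5, Slfn8 and Slfn9, and 2.97% of 32817 mouse promoter windows of the same length hold it. In Slfn8 and Slfn9 it was the same 10 letters, ending 39 and 36 bases before the start, and the windows of Slfn8 and Slfn9 were alike at 80.2% of aligned positions, against 51.0% for Slfn1 and Slfn2. The 12 letters CACTTCCTGGAG began 75 bases before the start of Slfn1 and 56 bases before that of Slfn2, and 9 of the 32817 windows (0.0274%) hold them on either strand. The gamma-activated sequence TTCNNNGAA was in none of the 5 windows and in 7.01% of all. The 12-letter run was picked because the windows of Slfn1 and Slfn2 share it, so its share of all windows is no test of it. It does not set this pair apart. The window of Slfn4, another Schlafen gene, shares a longer, overlapping run with that of Slfn1, without the first of the 12 letters. These matches describe letters and no binding was measured.

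In 26 libraries the total was 6991521 to 26284630 counts, and in the other, Iso PD1-KLRG1+ replicate 3, it was 93198. All 4 libraries of Iso PD1-KLRG1+ stood apart: of 6951 genes whose median reached 20 CPM (the count of a gene scaled by its library's total), 9.81% to 29.4% had no count in them, against at most 3.57% in any other library. Each of the 7 markers of CD8 T cells, such as Cd8a and Cd3e, was present in every group, with summed levels of 10305 to 12193 CPM in Tri PD1+KLRG1+ and 10208 to 11530 CPM in Tri PD1-KLRG1-. Cd4, which defines the other main T cell lineage, was at most 7.15 CPM in any library. The libraries fall into 2 name series by whether their description carries an RNA-number suffix (18 without and 9 with it). The fit included the name series.

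Slfn2 had the highest level of the 5 per base of exon, and Slfn5 or Slfn9 the lowest. In Tri PD1-KLRG1- cells, CPM per kilobase of exon averaged 399 ± 24.2 for Slfn2, 174 ± 19.1 for Slfn1, 49.3 ± 12.3 for Slfn8, 4.31 ± 4.72 for Slfn9 and 3.42 ± 1.74 for Slfn5 (SD, n = 5). Counts behind the values were high for Slfn1 (969 to 6048 in the 26 deeper libraries), Slfn2 (2922 to 13602) and Slfn8 (856 to 4985), and ran down to 0 for Slfn5 and to 1 for Slfn9. Around its group means on the log2(CPM + 1) scale, Slfn1 had an SD of 0.28 and Slfn2 of 0.28 over the 23 libraries outside Iso PD1-KLRG1+, against 0.49 for Slfn8, 1.27 for Slfn9 and 1.31 for Slfn5. The short members were thus steady between replicates, while Slfn5 and Slfn9 were not.

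**Figure D1:**
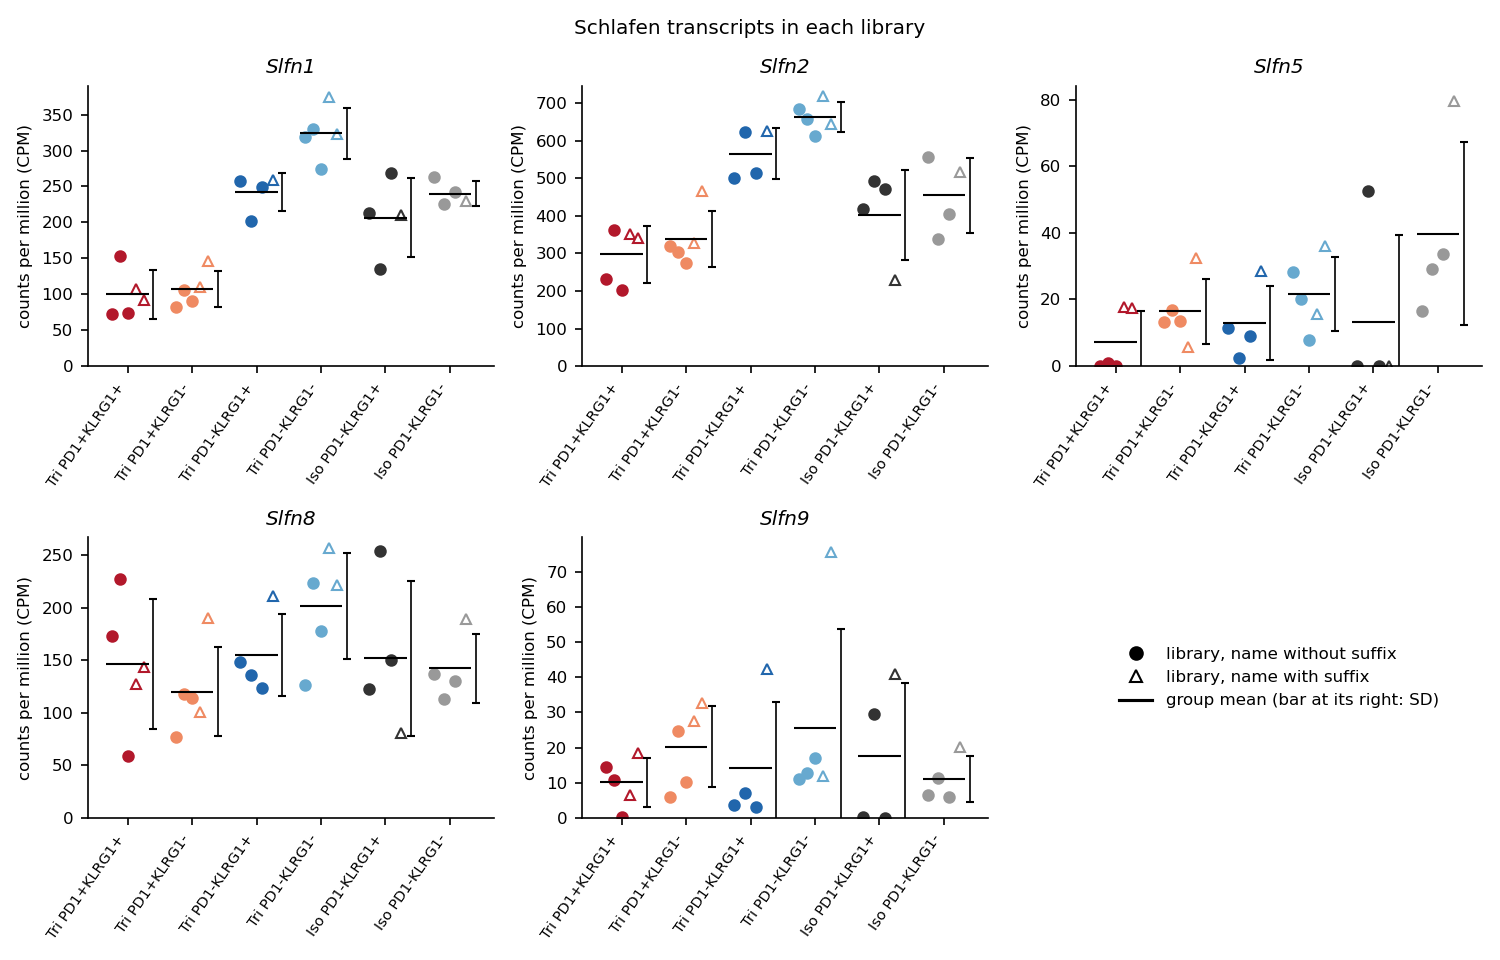
Level of each Schlafen member in each of the 27 libraries, in CPM on linear axes that start at 0, by group. Points are libraries (circles without and triangles with the name suffix), lines are group means and bars are SDs, cut at 0 where they would go below it; for Slfn1 and Slfn2 every Tri PD1+ library sits below every Tri PD1- library, while for Slfn5, Slfn8 and Slfn9 the groups overlap.

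Slfn1, the founding member, had the larger log2 difference of the 2 members called between the PD-1 gates. It had 72.2, 153.7, 73.4, 107.9 and 91.4 CPM in Tri PD1+KLRG1+ libraries, against 257.1, 202.4, 249.3 and 259.1 CPM in Tri PD1-KLRG1+ libraries. Among KLRG1- cells it had 82.2, 105.5, 90.8, 110.6 and 146.2 CPM in Tri PD1+KLRG1- libraries, against 318.3, 330.5, 274.4, 374.5 and 322.8 CPM in Tri PD1-KLRG1- libraries. In both pairs every PD1+ library was below every PD1- library. In PD1+ cells Slfn1 had a log2 difference of -1.38 ± 0.22 (SE) within the KLRG1+ gate, 2.61-fold lower, and of -1.66 ± 0.21 within the KLRG1- gate, 3.16-fold lower. The Iso libraries, all of PD1- cells, had 212.5, 135.1, 268.2 and 210.7 CPM in Iso PD1-KLRG1+ and 263.2, 225.2, 242.2 and 230.1 CPM in Iso PD1-KLRG1-.

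Slfn2, whose product holds T cells in quiescence and shields transfer RNAs from cleavage in mice, followed the same split at a higher level. It had 231.1, 362.3, 202.0, 351.1 and 339.8 CPM in Tri PD1+KLRG1+ libraries, against 501.4, 623.1, 512.9 and 625.4 CPM in Tri PD1-KLRG1+ libraries. It had 319.8, 303.5, 273.6, 328.5 and 466.3 CPM in Tri PD1+KLRG1- libraries, against 684.6, 658.8, 613.9, 719.8 and 643.2 CPM in Tri PD1-KLRG1- libraries. Again no PD1+ library reached a PD1- library of the same KLRG1 gate. The log2 difference of PD1+ cells was -1.04 ± 0.20 in the KLRG1+ gate and -1.03 ± 0.19 in the KLRG1- gate, 2.05-fold lower in both. The Iso libraries had 417.9, 492.2, 472.1 and 228.5 CPM in Iso PD1-KLRG1+ and 556.7, 339.7, 405.3 and 517.5 CPM in Iso PD1-KLRG1-.

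Slfn8, a long member, overlapped between the PD-1 gates. Its level was 58.9 to 227.7 CPM in Tri PD1+KLRG1+ and 123.4 to 211.4 CPM in Tri PD1-KLRG1+, where the log2 difference was -0.17 ± 0.33. It was 77.0 to 190.4 CPM in Tri PD1+KLRG1- and 126.7 to 257.2 CPM in Tri PD1-KLRG1-, where the log2 difference was -0.80 ± 0.31. The KLRG1- difference was -0.98 to -0.68 on leaving out each library in turn and was not called, but with the 2 groups fitted alone Slfn8 was called, at -0.80 ± 0.21. Slfn8 shares more transcript sequence with other Schlafen genes than the short members do. Of its 50-base transcript stretches, 14.6% occur in another Schlafen transcript, mostly that of the pseudogene Slfn10-ps, against 0.606% for Slfn1 and 4.27% for Slfn2. Whether reads were counted to the wrong gene was not tested.

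Slfn9, the gene next to Slfn8 and close to it in sequence, was low and uneven. Its median was 10.8 CPM for Tri PD1+KLRG1+ libraries, 24.6 CPM for Tri PD1+KLRG1- libraries, 5.37 CPM for Tri PD1-KLRG1+ libraries, 12.7 CPM for Tri PD1-KLRG1- libraries, 14.9 CPM for Iso PD1-KLRG1+ libraries and 8.87 CPM for Iso PD1-KLRG1- libraries. Single libraries set the means: 75.9 CPM in replicate 5 of Tri PD1-KLRG1- stood against 11.03 to 17.1 CPM in the other 4, and 42.5 CPM in replicate 4 of Tri PD1-KLRG1+ against 3.15 to 7.06 CPM in the other 3. The PD-1 gates overlapped, with log2 differences of -0.14 ± 1.06 in KLRG1+ cells and -0.28 ± 0.99 in KLRG1- cells. Of its 50-base stretches, 11.2% occur in another Schlafen transcript.

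Slfn5, the long member at the far end of the cluster, was low and uneven, as Slfn9 was. In Tri PD1+KLRG1+ it had 0.106, 0.932 and 0 CPM in the 3 libraries without the name suffix and 17.8 and 17.3 CPM in the 2 with it. In Tri PD1-KLRG1+ it had 11.4, 2.58, 9.14 and 28.7 CPM, so that the groups overlapped and the log2 difference of -1.71 ± 1.56 was about as large as its error. It had 13.3, 16.8, 13.4, 5.87 and 32.6 CPM in Tri PD1+KLRG1-, against 28.3, 20.1, 7.85, 15.5 and 36.2 CPM in Tri PD1-KLRG1-, with a log2 difference of -0.45 ± 1.34. In Iso PD1-KLRG1+ it had 52.6 CPM in replicate 2 and no count in replicates 1, 3 and 4. For replicate 3, with its 93198 counts, a count of 0 allows up to 32.2 CPM (3 counts, counting error only). Of the 50-base stretches of Slfn5, 3.68% occur on either strand in transcripts of other genes. No source used here gives the strand setting of the counts, so that reads of Slfn5 and of its antisense gene Slfn5os, which had no count, cannot be told apart.

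Read against all genes tested, 2 of the 5 members (Slfn1 and Slfn2) were called lower in PD1+ than in PD1- Tri KLRG1+ cells, where called means a Benjamini-Hochberg adjusted p under 0.05 over all 14059 genes tested in edgeR's quasi-likelihood test. In that comparison 0.711% of genes were called lower and 1.2% in either direction. The same 2 were called lower in PD1+ than in PD1- Tri KLRG1- cells, where 0.939% of genes were called lower and 1.56% in either direction. Libraries that did not overlap in the lower direction were found for 2.25% of genes in the KLRG1+ gate and for 2.92% in the KLRG1- gate. Since the members were picked with these changes known, nothing is read from these shares. The 2 comparisons share no library, while the treatment and KLRG1 comparisons given next share groups with them and with each other. The difference between the 2 PD-1 effects was 0.28 ± 0.30 for Slfn1, -0.01 ± 0.28 for Slfn2 and 0.62 ± 0.45 for Slfn8 on the log2 scale, and edgeR called 0 of 5 members for it, beside a background of 0% of all genes. None of the 5 had an unadjusted p under 0.05 for that difference, and DESeq2 called none.

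**Figure D2:**
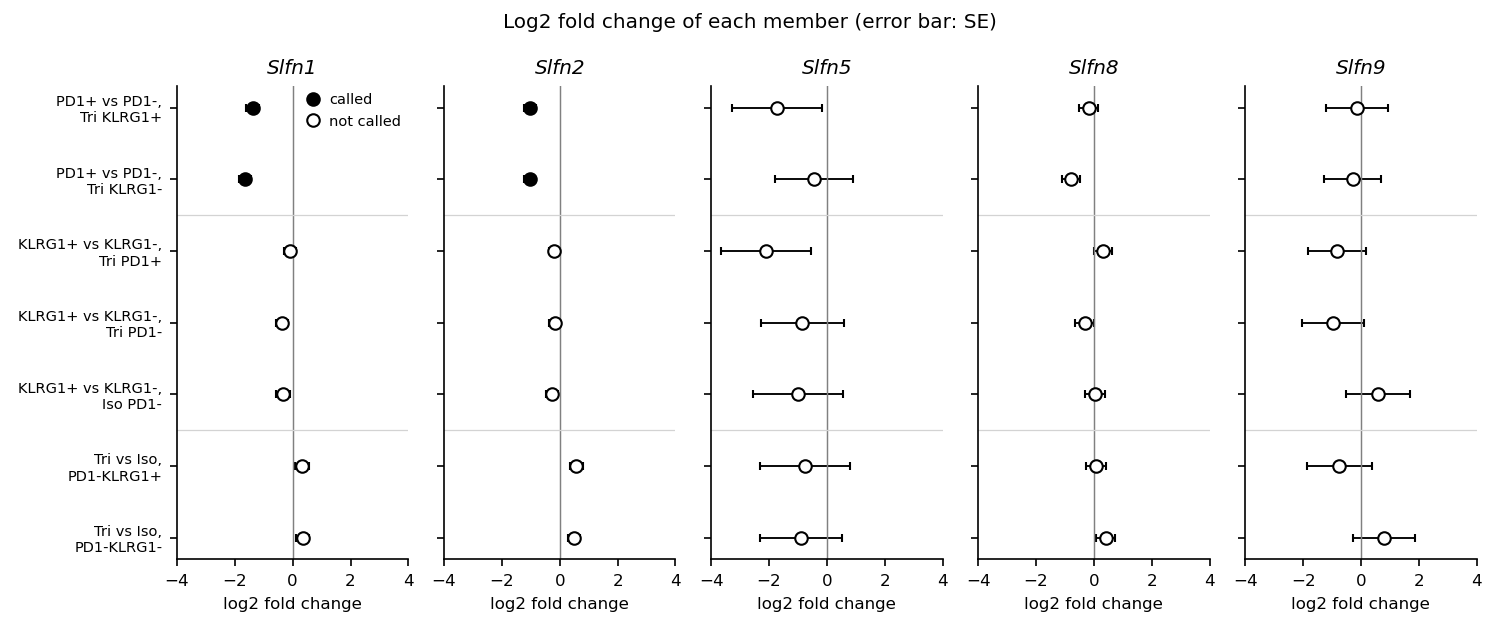
Log2 fold change of each member in the 7 comparisons of groups, with its standard error, from the fit to all 27 libraries. Filled points are genes called over all genes tested; only Slfn1 and Slfn2 in the PD-1 comparisons are filled, at -1.38 and -1.66 for Slfn1 and -1.04 and -1.03 for Slfn2.

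Within each name series the direction held. In the 18 libraries without the suffix Slfn1 was -1.32 ± 0.30 in the KLRG1+ gate and -1.79 ± 0.30 in the KLRG1- gate (log2, PD1+ over PD1-), and Slfn2 was -1.12 ± 0.23 and -1.18 ± 0.23. All 4 were called. In the 9 libraries with the suffix, which leave 1 or 2 per group, Slfn1 was -1.40 ± 0.33 and -1.44 ± 0.28 and Slfn2 -0.87 ± 0.31 and -0.77 ± 0.26, and none was called.

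The balance of the pair differed between the PD-1 gates. The ratio of Slfn2 to Slfn1 CPM was 3.06 ± 0.52 in Tri PD1+KLRG1+ cells and 3.19 ± 0.41 in Tri PD1+KLRG1- cells (SD, n = 5 each), against 2.37 ± 0.51 (n = 4) in Tri PD1-KLRG1+ cells and 2.06 ± 0.13 (n = 5) in Tri PD1-KLRG1- cells. In the KLRG1- gate the lowest PD1+ library, at 2.88, was above the highest PD1- library, at 2.24, whereas in the KLRG1+ gate the libraries overlapped (2.36 to 3.72 against 1.95 to 3.08). The 5 members summed to 560 ± 157 CPM in Tri PD1+KLRG1+ and 602 ± 153 CPM in Tri PD1+KLRG1-, against 990 ± 122 CPM in Tri PD1-KLRG1+ and 1237 ± 112 CPM in Tri PD1-KLRG1-. Slfn2 made up 53.7% to 57.3% of that sum on average in the 4 Tri groups. In these bulk libraries, fewer cells with a transcript and less of it per cell cannot be told apart.

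**Figure D3:**
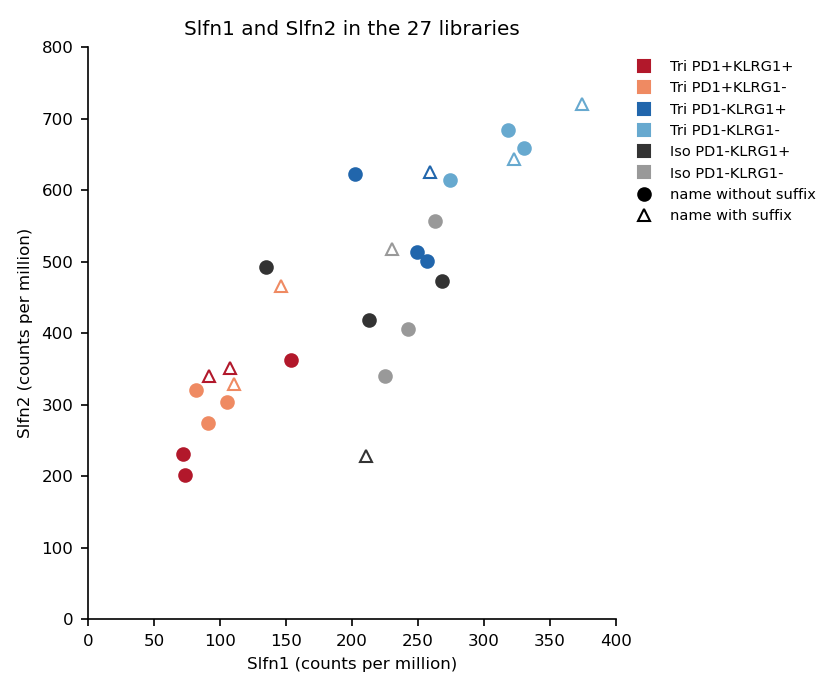
Slfn2 against Slfn1 in each of the 27 libraries, both in CPM on linear axes, coloured by group and shaped by name series. The 10 Tri PD1+ libraries sit at the lower left, at or below 153.7 CPM of Slfn1, and the Tri PD1-KLRG1- libraries at the upper right.

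Ordered by mean level, Slfn1 ran from Tri PD1-KLRG1- (324 ± 35.7 CPM) through Tri PD1-KLRG1+ (242 ± 26.7), Iso PD1-KLRG1- (240 ± 16.9) and Iso PD1-KLRG1+ (207 ± 54.7) to Tri PD1+KLRG1- (107 ± 24.6) and Tri PD1+KLRG1+ (99.7 ± 33.6). The 3 groups in the middle did not differ from their neighbours among themselves by more than the larger SD, nor did the 2 PD1+ groups. Slfn2 had the same order: 664 ± 40.3, 566 ± 67.8, 455 ± 100.02, 403 ± 120.3, 338 ± 74.5 and 297 ± 74.8 CPM. Its 4 lowest groups did not differ from their neighbours among themselves by more than the larger SD. For Slfn5, Slfn8 and Slfn9 no neighbours in the order differed by more than the larger SD.

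Around their group means, Slfn1 and Slfn2 deviated in the same direction in many libraries, with a Pearson r of 0.68 (Spearman 0.61) for deviations of log2(CPM + 1) over the 23 libraries outside Iso PD1-KLRG1+. The neighbours Slfn8 and Slfn9 had an r of 0.72 (Spearman 0.65), and the other 8 pairs lay between 0.30 and 0.62. These points share library depth and, for Slfn8 and Slfn9, sequence, and the values are a description.

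The treatment was compared in PD1- cells. Among PD1-KLRG1- cells every Tri library was above every Iso library for both Slfn1 (274.4 to 374.5 CPM in Tri, 225.2 to 263.2 CPM in Iso) and Slfn2 (613.9 to 719.8 CPM in Tri, 339.7 to 556.7 CPM in Iso), as it was for 2.61% of all genes tested. The log2 differences were 0.35 ± 0.22 for Slfn1 and 0.49 ± 0.20 for Slfn2. EdgeR called 0 of 5 members, against 0.804% of all genes. Slfn2 alone had an unadjusted p under 0.05, and DESeq2 called none. Markers of myeloid cells moved with the treatment here: the summed level of 15 of them was 162 to 506 CPM in Tri and 742 to 3442 CPM in Iso, with Adgre1 and S100a9 without a count in Tri and no marker without a count in Iso. The summed level of 6 markers of NK or innate-like cells was 950 to 1275 CPM in Tri and 296 to 530 CPM in Iso. That rise lay in Klrk1 (840 to 1111 CPM in Tri, 162 to 391 CPM in Iso) and Klre1. Klrb1c was lower in Tri (2.85 to 19.8 CPM, against 26.7 to 38.9 CPM), as was Trdc (0 to 10.4 CPM, against 23.8 to 38.2 CPM). Tcrg-C1 and Ncr1 had lower medians in Tri, and the median log2 difference of the 5 tested was -1.49. The summed level of 5 B cell markers was 0 to 22.4 CPM in Tri and 24.7 to 27.5 CPM in Iso. That of the 7 CD8 T cell markers was 10208 to 11530 CPM in Tri and 8256 to 9217 CPM in Iso. The part of these markers in the difference was not tested. Slfn8 (0.41 ± 0.33), Slfn9 (0.81 ± 1.07) and Slfn5 (-0.90 ± 1.42) overlapped between Tri and Iso.

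Among PD1-KLRG1+ cells the comparison rests on the 4 Iso libraries in which many genes had no count. Slfn2 was 501.4 to 625.4 CPM in Tri and 228.5 to 492.2 CPM in Iso, without overlap, as were 8.38% of genes in that direction, and its log2 difference was 0.58 ± 0.22. Slfn1 was 202.4 to 259.1 CPM in Tri and 135.1 to 268.2 CPM in Iso, with a log2 difference of 0.32 ± 0.23. The median log2 difference over all genes was 0.34 in this comparison, so Slfn1 lay near the middle of all genes. EdgeR called 0 of 5 members, against 6.08% of all genes. Slfn2 alone had an unadjusted p under 0.05, and DESeq2 called none. Without replicates 3 and 4 of Iso PD1-KLRG1+ and replicate 5 of Tri PD1-KLRG1-, the log2 difference was 0.51 ± 0.28 for Slfn1 and 0.31 ± 0.22 for Slfn2, so Slfn1 then had the larger of the 2. In the 18 libraries without the suffix the log2 difference of Slfn2 was 0.39 ± 0.23, and in the 9 with it 1.40 ± 0.37. That last value sets 1 Tri library (625.4 CPM) against 1 Iso library (228.5 CPM), and its error is taken from the spread of other groups. Without replicate 2 of Iso PD1-KLRG1+, the only library of that group with Slfn5, Slfn5 was called. Median-ratio (RLE) scaling moved the median of all genes by -0.19 in this comparison and gave 0.35 ± 0.21 for Slfn2 and 0.10 ± 0.24 for Slfn1. The summed myeloid markers were 189 to 240 CPM in Tri and 182 to 8047 CPM in Iso, and those of tumour or stroma 0 to 48.9 CPM in Tri and 42.9 to 3202 CPM in Iso. Their part was not tested.

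EdgeR called no member between the KLRG1 gates. In Tri PD1+ cells Slfn1 was -0.08 ± 0.20 and Slfn2 -0.18 ± 0.19 (log2, KLRG1+ over KLRG1-). EdgeR called 0 of 5 members there, against 0.0569% of all genes. In Tri PD1- cells every KLRG1+ library was below every KLRG1- library for Slfn1 (202.4 to 259.1 CPM in Tri PD1-KLRG1+, 274.4 to 374.5 CPM in Tri PD1-KLRG1-), as for 0.967% of genes, with a log2 difference of -0.36 ± 0.22. Slfn2 overlapped there, at -0.18 ± 0.20. EdgeR called 0 of 5 members, against 0% of all genes. In Iso PD1- cells Slfn1 was -0.34 ± 0.23 and Slfn2 -0.27 ± 0.21, and edgeR called 0 of 5 members, against 8.66% of all genes. The median over all genes was -0.52 there, lower than either member, against -0.07 in Tri PD1+ cells and -0.01 in Tri PD1- cells. Slfn8 lay between -0.31 ± 0.33 and 0.31 ± 0.31 in the 3 comparisons. Slfn5 and Slfn9 had larger differences with larger errors, at -2.11 ± 1.54 and -0.83 ± 0.99 in Tri PD1+ cells, -0.84 ± 1.45 and -0.97 ± 1.07 in Tri PD1- cells, and -1.00009 ± 1.55 and 0.58 ± 1.12 in Iso PD1- cells. In these 3 comparisons no member had an unadjusted p under 0.05 and DESeq2 called none. The log2 difference between the KLRG1 effects under Tri and under Iso was -0.02 ± 0.32 for Slfn1 and 0.09 ± 0.29 for Slfn2, beside a median of 0.48 over all genes. EdgeR called 0 of 5 for it, against 3.59% of all genes, with no member at an unadjusted p under 0.05 and none called by DESeq2.

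Of 6 other Schlafen genes in the table, 3 had enough counts to be tested. The pseudogene Slfn10-ps, between Slfn8 and Slfn2, had 9.74 to 79.9 CPM outside Iso PD1-KLRG1+, and in that group 26.5 CPM in replicate 1 and no count in the other 3. Its PD-1 differences were -0.64 ± 0.99 in KLRG1+ cells (adjusted p = 0.989, edgeR) and -0.26 ± 0.92 in KLRG1- cells (adjusted p = 1, edgeR). Slfn3 was at most 23.4 CPM, and Slfn4, a gene of macrophages and other myeloid cells, had counts in 4 libraries, at most 9.64 CPM. EdgeR called none of the 3 in any of the 7 comparisons at the adjusted threshold. An unadjusted p under 0.05 was found for all 3 in the treatment comparison of PD1-KLRG1+ cells, for Slfn4 in the PD-1 comparison of KLRG1+ cells and the KLRG1 comparison of Tri PD1- cells, and for Slfn3 in the KLRG1 comparison of Iso PD1- cells. DESeq2 called Slfn3 in 2 of them, those that hold Iso PD1-KLRG1+, a group in which Slfn3 had no count (against 2.78 to 4.63 CPM in Iso PD1-KLRG1-). Slfn14 had 1 count in all libraries together, and Slfnl1 and Slfn5os had none.

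Interferon-stimulated genes are the class to which Schlafen genes are usually assigned. Of 24 listed genes, 0 rose and 4 fell in PD1+ cells of the KLRG1+ gate, with a median log2 difference of -0.89, and 0 rose and 5 fell in those of the KLRG1- gate, with a median of -1.31. The median over all genes was -0.01 and 0.06 in these 2 comparisons. The difference was below 0 for 21 of the 24 in the KLRG1+ gate and for 23 in the KLRG1- gate, called or not. Such a count was not limited to the PD-1 gates. Between the KLRG1 gates (KLRG1+ over KLRG1-) 21 of the 24 were below 0 in Tri PD1- cells, with a median of -0.36. In Tri PD1+ cells 11 were (median 0.09), and in Iso PD1- cells 19 (median -0.39, against -0.52 over all genes). Rtp4, a chaperone of receptors, averaged 64.8 ± 17.2 CPM (n = 5) in Tri PD1+KLRG1+, against 204.5 ± 61.0 CPM (n = 4) in Tri PD1-KLRG1+, which is -1.73 ± 0.28 on the log2 scale (adjusted p = 0.00125, edgeR). It averaged 72.9 ± 9.34 CPM in Tri PD1+KLRG1-, against 293 ± 25.5 CPM in Tri PD1-KLRG1-, or -2.06 ± 0.27 (adjusted p = 4.07e-05, edgeR). Samhd1, which degrades nucleotides, was at -1.26 in the KLRG1+ gate (adjusted p = 0.00947, edgeR, log2 scale) and at -1.40 in the KLRG1- gate (adjusted p = 0.00167, edgeR). Zbp1, a sensor of nucleic acids, was at -1.003 (adjusted p = 0.0227, edgeR) and -1.37 (adjusted p = 0.000461, edgeR). The fourth gene of the KLRG1+ gate was Oas2, without a count in Tri PD1+KLRG1+ and at 4.67 ± 4.14 CPM in Tri PD1-KLRG1+, where it ran from 0 to 8.73 CPM (adjusted p = 0.0499, edgeR). Ifit1 and Ifit3 completed the 5 of the KLRG1- gate, with Ifit1 at -1.85 ± 0.34 (adjusted p = 0.00191, edgeR).

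Log2 differences of interferon receptors and signalling molecules were mostly below 0 (14 of 17 in the KLRG1+ gate and 16 of 17 in the KLRG1- gate). Counted by calls, 1 rose and 2 fell in PD1+ cells of the KLRG1+ gate and 1 rose and 5 fell in those of the KLRG1- gate. The medians of the 17 were -0.62 and -0.80. The riser in both was Irf8, a transcription factor that activated T cells also express, at 751 ± 122 CPM in Tri PD1+KLRG1+, against 139 ± 21.6 CPM in Tri PD1-KLRG1+ (2.37 ± 0.33 on the log2 scale, adjusted p = 0.000558, edgeR). Irf1, which activates interferon-responsive genes, was at -0.94 (adjusted p = 0.0153, edgeR) in the KLRG1+ gate and -1.24 (adjusted p = 0.000402, edgeR) in the KLRG1- gate. Usp18, a brake on interferon signalling, was at -1.55 (adjusted p = 0.00917, edgeR) and -1.73 (adjusted p = 0.00152, edgeR).

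Slfn2 is tied in mice to T cell quiescence. Of 21 quiescence genes tested, 0 rose and 2 fell in PD1+ cells of the KLRG1+ gate and 0 rose and 6 fell in those of the KLRG1- gate, with medians of -0.71 and -0.75 and 5 genes above 0 in each gate. The transcription factor Lef1 averaged 62.3 ± 21.4 CPM in Tri PD1+KLRG1+, against 163 ± 59.6 CPM in Tri PD1-KLRG1+ (adjusted p = 0.0175, edgeR), and 22.7 ± 10.8 CPM in Tri PD1+KLRG1-, against 182 ± 37.2 CPM in Tri PD1-KLRG1- (adjusted p = 3.25e-06, edgeR). Foxo1, a regulator of quiescence and of lymph node homing, was at -1.79 (adjusted p = 0.0297, edgeR) and -2.03 (adjusted p = 0.00544, edgeR). The egress receptor S1pr1 (-5.20 ± 0.72, adjusted p = 5.75e-05, edgeR) was called in the KLRG1- gate.

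Lists of G1 cyclins and their inhibitors (14 genes), proliferation genes (18) and transfer RNA cleavage and modification (10 tested of 11) had 0 of their genes called by edgeR in either PD-1 comparison. An unadjusted p under 0.05 was found for 1 gene of each list in the KLRG1+ gate, and for 3 G1 genes, 0 proliferation genes and 1 transfer RNA gene in the KLRG1- gate. DESeq2 called 1 G1 gene and 1 transfer RNA gene higher in each gate and no proliferation gene. Their median log2 differences in the KLRG1+ gate were -0.14, 0.40 and 0.20, and in the KLRG1- gate 0.07, 0.06 and 0.35.

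Some of these list calls were lost on leaving out 1 library. In the KLRG1+ gate 2 of the 9 called list genes, Rtp4 and Irf8, remained called without replicate 1 of Tri PD1-KLRG1+, and 4 of the 9 without replicate 4 of that group or replicate 5 of Tri PD1+KLRG1+. Without replicate 1 of Tri PD1-KLRG1+ the adjusted p (edgeR) was 0.0735 for Irf1, 0.0881 for Zbp1, 0.0603 for Lef1 and 0.0978 for Foxo1, while their log2 differences were -0.89, -0.93, -1.45 and -1.70. In the KLRG1- gate 16 or 17 of the 17 remained called whichever library was left out. In the 9 suffix libraries alone, 0 of the 9 and 1 of the 17 (Irf8) were called. Markers of CD4 or regulatory T cells summed to 212 to 298 CPM in Tri PD1+KLRG1+ and 87.4 to 103 CPM in Tri PD1-KLRG1+. Cd4 was at most 7.15 CPM. The higher sum lay in Ikzf2 (105 to 220 CPM, against 18.0 to 36.7 CPM) and Ctla4 (53.2 to 123 CPM, against 44.0 to 54.0 CPM). Foxp3 had a median of 0 CPM in Tri PD1+KLRG1+ and 5.65 CPM in Tri PD1-KLRG1+, and Zbtb7b had medians of 8.98 and 9.04 CPM. Myeloid markers summed to 217 to 700 CPM in Tri PD1+KLRG1+ and 189 to 240 CPM in Tri PD1-KLRG1+, and to 227 to 624 CPM in Tri PD1+KLRG1- and 162 to 506 CPM in Tri PD1-KLRG1-, and edgeR called 0 of the 15 in either gate. Of the 7 CD8 T cell markers, edgeR called 2 higher and 1 lower in PD1+ cells of each gate. The part of these marker lists in the PD-1 differences was not tested.

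**Figure D4:**
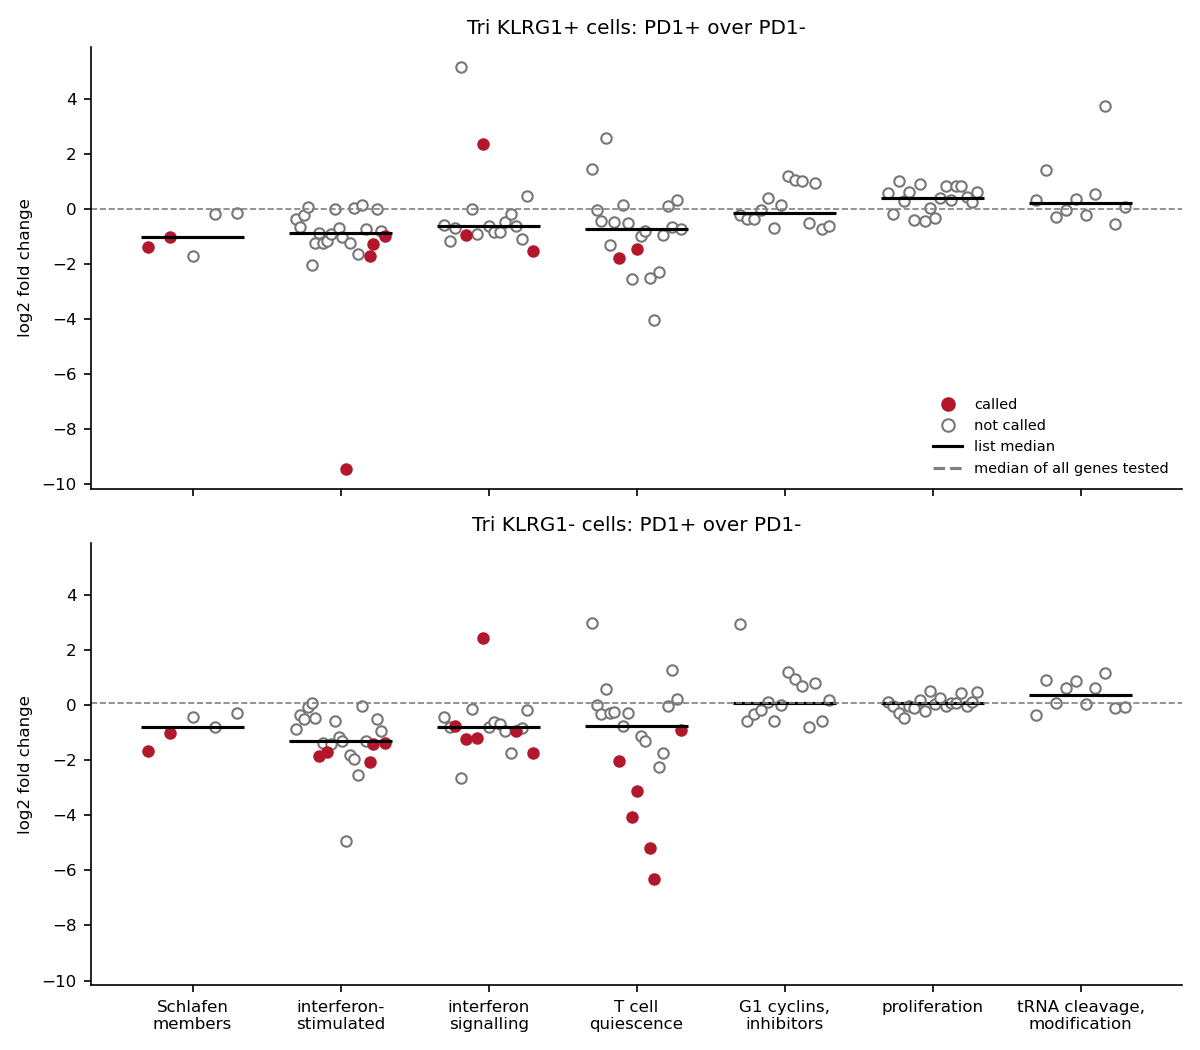
Log2 fold change of the 5 members and of the genes of 6 lists, PD1+ over PD1-, in Tri KLRG1+ cells (top) and Tri KLRG1- cells (bottom). Each point is a gene, red where called, short lines are list medians and the dashed line is the median of all genes tested; the interferon-stimulated list sits lower, with medians of -0.89 and -1.31. Fitted values of genes without a count in a group, such as Oas2 in the top panel, depend on the prior count.

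In the treatment comparisons few list genes were called. Among PD1-KLRG1- cells the cyclin Ccnd2 was lower in Tri than in Iso, at -0.83 ± 0.18 on the log2 scale (adjusted p = 0.0266, edgeR). None of the 24 interferon-stimulated genes was called there by edgeR, 1 had an unadjusted p under 0.05, DESeq2 called none, and their median was 0.03. The call of Ccnd2 was lost without any 1 of Tri PD1-KLRG1- replicates 1, 2 and 4 or Iso PD1-KLRG1- replicates 2 and 3, with an adjusted p (edgeR) of 0.0732 to 0.0964. Among PD1-KLRG1+ cells 1 of 24 interferon-stimulated genes (Rtp4, 1.06 ± 0.30, adjusted p = 0.0365, edgeR) was called higher. Its call was lost with RLE scaling and on leaving out any of 11 libraries, with an adjusted p (edgeR) of 0.0505 to 0.125. In the KLRG1 comparisons of Tri cells edgeR called 0 of the 104 tested list genes, with 12 at an unadjusted p under 0.05 in PD1+ cells and 10 in PD1- cells, and DESeq2 called 4 and 1. In Iso PD1- cells, with the group that lacks counts for many genes, the median log2 difference over all genes was -0.52. There 13 list genes were called, 5 of them quiescence genes that were lower in KLRG1+ cells. The count was 7 without Iso PD1-KLRG1- replicate 3 and 19 without Iso PD1-KLRG1+ replicate 4, and 5 of the 13 remained called with the 2 groups fitted alone.

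The genes whose levels followed each member most closely were found by Pearson r of log2(CPM + 1) over the 23 libraries outside Iso PD1-KLRG1+, among 8818 genes whose mean reached 10 CPM. For Slfn1 these were Slco3a1, a transporter of organic anions (r = 0.94), Ifit1bl1, a member of the Ifit family (0.94), and Igtp, an interferon-inducible GTPase (0.93). For Slfn2 they were Irgm1, another such GTPase (0.94), Stk17b, a kinase of T cells (0.92), and Ifi214, a member of the Ifi200 family (0.91). Igtp averaged 244 ± 77.5 CPM in Tri PD1+KLRG1+ and 244 ± 28.8 CPM in Tri PD1+KLRG1-, against 601 ± 112 CPM in Tri PD1-KLRG1+ and 792 ± 145 CPM in Tri PD1-KLRG1-. Irgm1 averaged 162 ± 73.7 and 161 ± 39.4 CPM in the 2 PD1+ groups, against 360 ± 32.9 CPM in Tri PD1-KLRG1+ and 379 ± 70.5 CPM in Tri PD1-KLRG1-.

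For Slfn8 the closest genes were Parp9, an ADP-ribosyltransferase family member (0.84), Adgrg5, an adhesion receptor (0.84), and Pacs1, a sorting protein (0.80). For Slfn5 they were Atxn3, a deubiquitinase (0.86), Mtg1 (0.85) and Thada (0.85), and for Slfn9 Rbm43 (0.81), Mlycd (0.78) and Swt1 (0.77). The libraries of a group share their gate and treatment, and the values are a description. With all 27 libraries Ifit1bl1 was the closest to Slfn1 (0.92), Ifi214 second to Slfn2 (0.89) and Adgrg5 the closest to Slfn8 (0.82), while the other 12 genes lay lower in the order. Slco3a1 was then in place 12 (0.84) and Igtp in place 10 (0.85) for Slfn1, and Irgm1 in place 9 (0.79) and Stk17b in place 61 (0.68) for Slfn2. Those of Slfn5 were in places 135 to 593, and Swt1 (0.10) and Mlycd (0.21) no longer followed Slfn9.

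**Figure D5:**
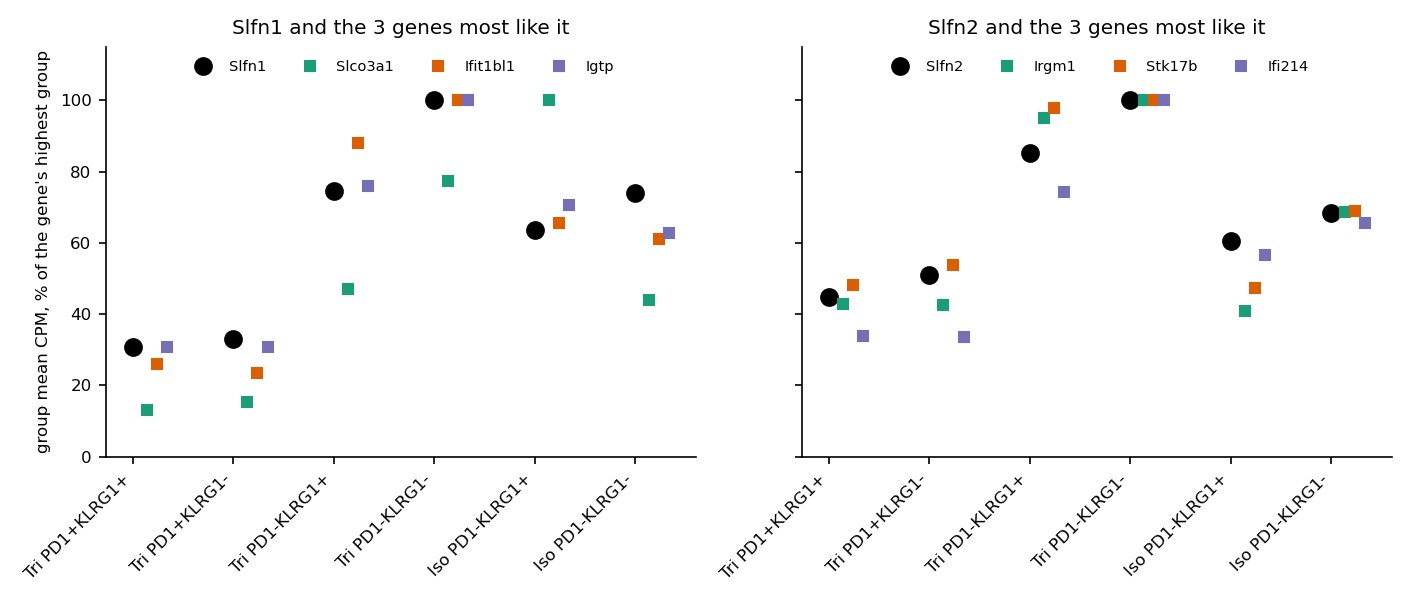
Group means of Slfn1 and Slfn2 (black) and of the 3 genes most like each, in percent of the gene's own highest group mean of CPM. In both panels the 2 Tri PD1+ groups are below the 2 Tri PD1- groups for all 4 genes. In Iso PD1-KLRG1+, which was left out of the likeness, Slco3a1 is at its highest (290 CPM) and Irgm1 at its lowest (155 CPM).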

How the data were processed

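RNA-seq of 27 libraries in 6 groups was analysed from the deposited table of raw counts per Ensembl mouse gene, whose columns were matched to samples by their names. DESeq2 1.26.0 is named in the submitters' processing notes, without its role, and no source used here gives the aligner, build or strand setting. Of 47729 IDs, 47224 were given a symbol. CPM were computed from library totals. Genes passing edgeR's filterByExpr (minimum count 10) numbered 14059. All 27 libraries were fitted together with edgeR 4.0.16 (quasi-likelihood, robust, TMM scaling, R 4.3.3), with terms for group and name series, and p-values were adjusted by Benjamini-Hochberg over all genes tested. DESeq2 1.42.0 was an alternative. The test was checked on simulated counts.

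The members, the lists and the rules were chosen with earlier results of these data known. Named genes are the members, the other Schlafen genes, up to 3 called genes per list and direction by smallest p, and the 3 genes most like each member. Some genes that this rule selects are not reported here. Further called list genes, where named, were chosen after their values were seen. Whether replicates came from separate mice is not stated in the labels, so p-values measure only the spread between these libraries.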

Additional observations from a re-analysis of the deposited data

Results flagged for a closer look

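In 6 of 41 groups of values checked, 1 library lay far from the others of its group, by the gap to its nearest neighbour over the range of the group. Chance alone gives this in about 1 in 20 groups of normally distributed values. That rate does not hold for a group with counts in only 1 library, which is flagged whatever the value. Slfn5 and Slfn10-ps in Iso PD1-KLRG1+ were such groups, so the 6 flags are not read as an excess. Slfn2 was 466.3 CPM in replicate 5 of Tri PD1+KLRG1-, against 274 to 329 CPM in the other 4 libraries. Slfn5 was 52.6 CPM in replicate 2 of Iso PD1-KLRG1+, where the other 3 had no count. Slfn9 was 42.5 CPM in replicate 4 of Tri PD1-KLRG1+, against 3.15 to 7.06 CPM, and 75.9 CPM in replicate 5 of Tri PD1-KLRG1-, against 11.03 to 17.1 CPM. Slfn10-ps was 32.9 CPM in replicate 3 of Tri PD1+KLRG1-, against 52.6 to 58.2 CPM, and 26.5 CPM in replicate 1 of Iso PD1-KLRG1+, where the other 3 had no count.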

How the results depend on the processing

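Slfn1 and Slfn2 were called lower in both PD-1 comparisons under every alternative run except the 9 libraries with the name suffix, where 0 members were called in either, beside 1 and 7 of all genes. Leaving out each of the 27 libraries in turn gave log2 differences of -1.59 to -1.24 for Slfn1 and -1.10 to -0.87 for Slfn2 in the KLRG1+ gate, and -1.76 to -1.59 and -1.14 to -0.95 in the KLRG1- gate, all called. Without the 4 libraries of Iso PD1-KLRG1+, an alternative chosen after seeing the data, both members stayed called in both gates. With the 2 groups of the KLRG1- gate fitted alone, Slfn8 was called too (3 members).

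The suffix libraries alone gave 2 called members for the treatment in PD1-KLRG1+ cells (Slfn2 and Slfn5), and 1 (Slfn5) for KLRG1 in Iso PD1- cells and for its difference between treatments. These set 1 library against 1, with the spread assumed to be that of other groups, and Slfn5 had no count in the Iso PD1-KLRG1+ one. These 3 counts were 0 or 1 on leaving out single libraries, the 1 being Slfn5 without replicate 2 of Iso PD1-KLRG1+. The cause was not tested. Cdk6 reversed for KLRG1 in Iso PD1- cells in the suffix libraries, at 0.0253 against -1.17.

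Same-numbered libraries correlated at -0.07 to 0.15 in their deviations over 31 pairs (median 0.04), 5 of them over 0.1. Differently numbered ones correlated at -0.13 to 0.10 over 120 pairs (median -0.01), 2 of them over 0.1. Same-numbered libraries were thus slightly more alike, and the labels do not say whether the numbers pair the samples. Same-numbered libraries also share their name series, and their 5 pairs over 0.1 were all of libraries with the suffix. The part of the name series in this likeness was not tested. The reported fit does not pair them. With a replicate block Slfn1 was -1.44 and Slfn2 -1.09 in the KLRG1+ gate and -1.67 and -1.05 in the KLRG1- gate, and 2 members were called in each. Of the list genes, 7 of the 9 called in the KLRG1+ gate (not Lef1 and Oas2) and 17 of the 17 in the KLRG1- gate remained called with the block, and Rtp4 was lost for the treatment in PD1-KLRG1+ cells.

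Counts over all genes moved more. The KLRG1+ PD-1 comparison had 169 called genes, against 706 by DESeq2, 334 with no count filter, 475 without Iso PD1-KLRG1+ and 84 to 246 on leaving out 1 library. The KLRG1- one had 219, against 524 by DESeq2, 803 with its groups alone, 91 without the suffix libraries and 129 to 310 on leaving out 1 library. The treatment had 113 in PD1-KLRG1- cells (373 by DESeq2, 28 to 163 on leaving out 1 library) and 855 in PD1-KLRG1+ cells (1947 by DESeq2, 0 with its groups alone, 578 to 1280 on leaving out 1 library). Depth limits Slfn5 and Slfn9 in the library of 93198 counts, while in the others their values are limited by the spread between libraries.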
